A study of Mus musculus with 16 samples.

Results

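The genes described here are 9 regulators of the nasal and olfactory ectoderm, 9 of the 30286 gene symbols in the deposited table: the zinc finger factors Fezf1 and Sp8, the homeodomain factors Six3, Otx2, Pax6 and Emx2, the HMG-box factor Sox2, and the cofactors Eya2 and Vgll2. They were chosen by name and by measured values, because several had a higher value in knockout (KO) ectoderm while both mesenchyme values were low, so their KO to wild-type (WT) differences in ectoderm and their differences between layers are descriptions of that choice. RNA was sequenced from the facial prominences, the buds that build the face, of C57BL/6 embryos at embryonic day 12. WT ectoderm, Esrp1 KO ectoderm, WT mesenchyme and Esrp1 KO mesenchyme made up the 4 groups, with 4 libraries each and pools of 6 to 7 embryos per library. The KO embryos were homozygous for loss of Esrp1, a splicing regulator of epithelial cells, and the layers were parted by surgery. The prominences were not kept apart by the labels, so nasal ectoderm is 1 portion of each ectoderm sample.

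The nasal epithelium begins as the olfactory placode, a thickening of the surface ectoderm that folds inward as the nasal pit and gives rise to the lining of the nose and to its sensory neurons. Sox2, Otx2, Pax6 and the Eya family proteins belong to the regulatory network that sets up placodes of the head, and Fezf1, Sp8 and Emx2 act in the olfactory lineage, the facial buds or the forebrain. Most of these genes are also used in the neighbouring forebrain and eye, so their RNA alone does not name a cell type.

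The table held 1 TPM value per gene and group. TPM corrects for transcript length, so levels of different genes can be set side by side, but the depth behind each value is unknown. With 1 value per group no spread between libraries can be given, no test was possible, and "higher" or "lower" describes the deposited values only. Ratios between groups are given as fold (TPM over TPM) and as the log2 ratio of TPM + 1, which understates the change of low genes. A gene entered a comparison at a mean of at least 1 TPM over the groups compared and was counted from 1.5-fold upward for genotype and from 2-fold upward for layer, both on the TPM + 1 scale. In tissue, more cells of a type and more RNA per cell cannot be told apart. Esrp1 itself had 170 TPM in WT and 62.9 TPM in KO ectoderm, and 1.01 and 1.0 TPM in WT and KO mesenchyme. Factors of surface and oral ectoderm summed to 1329 and 1253 TPM in WT and KO ectoderm and to 380 and 296 TPM in WT and KO mesenchyme. Mesenchyme core genes summed to 569 and 1054 TPM in WT and KO ectoderm and to 5117 and 3657 TPM in WT and KO mesenchyme, with no gene of that list at 0 in any group.

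The bases ahead of the start sites of 5 of the genes are shown, to compare 3 with a large KO to WT ratio in ectoderm (Sp8, Six3, Vgll2) with a smaller one (Pax6) and with Sox2, which was nearly level. They are RefSeq windows on GRCm38.p6, 250 bases up to the annotated start, taken where they hold no exon of the gene itself in GENCODE M21. Capitals mark the motifs searched on both strands: the GC box as GGGCGG, the box known as CCAAT, the TATA box as TATAAA, the homeodomain core as TAATTA, the Otx core as TAATCC, the Tcf/Lef core as CTTTGA, the Sox core as CATTGT and the E-box as CAGCTG. None of the 8 motifs holds another in full on either strand.
Sp8, chr12:118846079-118846328, plus strand: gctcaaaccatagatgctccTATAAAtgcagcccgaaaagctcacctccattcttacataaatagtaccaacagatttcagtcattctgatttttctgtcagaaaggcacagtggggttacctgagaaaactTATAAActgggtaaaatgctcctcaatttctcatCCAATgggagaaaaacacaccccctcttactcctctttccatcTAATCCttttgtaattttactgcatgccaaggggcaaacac
Six3, chr17:85620584-85620833, plus strand: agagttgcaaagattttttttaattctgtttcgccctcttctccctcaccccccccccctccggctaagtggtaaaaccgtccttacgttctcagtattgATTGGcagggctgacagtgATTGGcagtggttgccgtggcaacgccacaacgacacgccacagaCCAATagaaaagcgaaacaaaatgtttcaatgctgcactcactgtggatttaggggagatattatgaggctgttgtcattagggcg
Vgll2, chr10:52022252-52022501, plus strand: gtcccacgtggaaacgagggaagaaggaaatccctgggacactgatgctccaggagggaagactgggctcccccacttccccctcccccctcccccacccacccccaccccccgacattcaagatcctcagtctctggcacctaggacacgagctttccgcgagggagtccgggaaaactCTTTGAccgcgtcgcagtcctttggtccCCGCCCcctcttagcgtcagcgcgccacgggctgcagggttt
Pax6, chr2:105668646-105668895, plus strand: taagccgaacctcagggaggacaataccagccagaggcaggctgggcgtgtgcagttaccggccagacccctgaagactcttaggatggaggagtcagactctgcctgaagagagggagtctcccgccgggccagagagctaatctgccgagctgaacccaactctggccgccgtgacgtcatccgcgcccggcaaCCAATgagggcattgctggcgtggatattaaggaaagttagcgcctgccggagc
Sox2, chr3:34649745-34649994, plus strand: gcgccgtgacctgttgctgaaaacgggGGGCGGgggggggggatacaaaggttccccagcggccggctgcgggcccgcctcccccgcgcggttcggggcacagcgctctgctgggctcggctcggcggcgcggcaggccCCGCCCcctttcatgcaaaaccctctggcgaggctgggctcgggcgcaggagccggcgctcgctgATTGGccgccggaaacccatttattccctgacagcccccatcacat

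These windows had no single make-up. The first Sp8 window, shown above, had 40.8% G and C with 1 CpG and carried 2 TATA boxes, 1 CCAAT box and 1 Otx core. Another Sp8 window without an exon of the gene, at 118846983 to 118847232, is not shown. It had 67.2% G and C, 32 CpG, 1 GC box, 1 CCAAT box and 1 Tcf/Lef core, so the make-up of Sp8 depends on the start. The Six3 window had 48.8% G and C, 10 CpG and 3 CCAAT boxes and no other motif searched. Its RefSeq start lies inside the GENCODE gene, 7226 bases from the GENCODE start, and the window overlaps an exon of Gm28528 on the opposite strand. The Sox2 window had 72% G and C, 27 CpG, 2 GC boxes and 1 CCAAT box, and the Vgll2 window 64.0% with 15 CpG, 1 GC box and 1 Tcf/Lef core. The first Pax6 window had 60.8% G and C, 15 CpG and 1 CCAAT box. RefSeq windows were matched for 8 of the 9 genes, all but Eya2, and numbered 14 because Sp8, Otx2 and Pax6 have several starts, some of them overlapping.

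A CCAAT box stood in at least 1 window of 7 of the 8 genes (8 of 14 windows), and in 33.8% of all 32851 windows of this length. A GC box stood in 5 of the 8 genes (5 of 14 windows; 32.7% of all windows). The homeodomain core was found in Sp8 and Otx2 (3 of 14 windows; 4.8% of all), the Otx core in the same genes (2 of 14; 6.3%), the TATA box also in these (2 of 14; 12.4%) and the Tcf/Lef core in Sp8 and Vgll2 (2 of 14; 13.8%). No window held the Sox core (10.7% of all) or the E-box (13.0%). The median window had 13 CpG against 6 over all windows. A match only describes the letters of the window.

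In KO ectoderm 8 of the 9 genes were at least 1.5-fold higher than in WT and none was lower. Over all 13935 genes tested, 4.92% were higher and 0.452% lower by this size. The median log2 ratio was 1.15 for the 9 genes and 0.05 for all genes. These counts follow from how the genes were chosen, and nothing is read from them. Added together, the 9 genes had 130 TPM in WT ectoderm and 258 TPM in KO ectoderm, against 56.8 and 38.1 TPM in WT and KO mesenchyme.

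**Figure D1:**
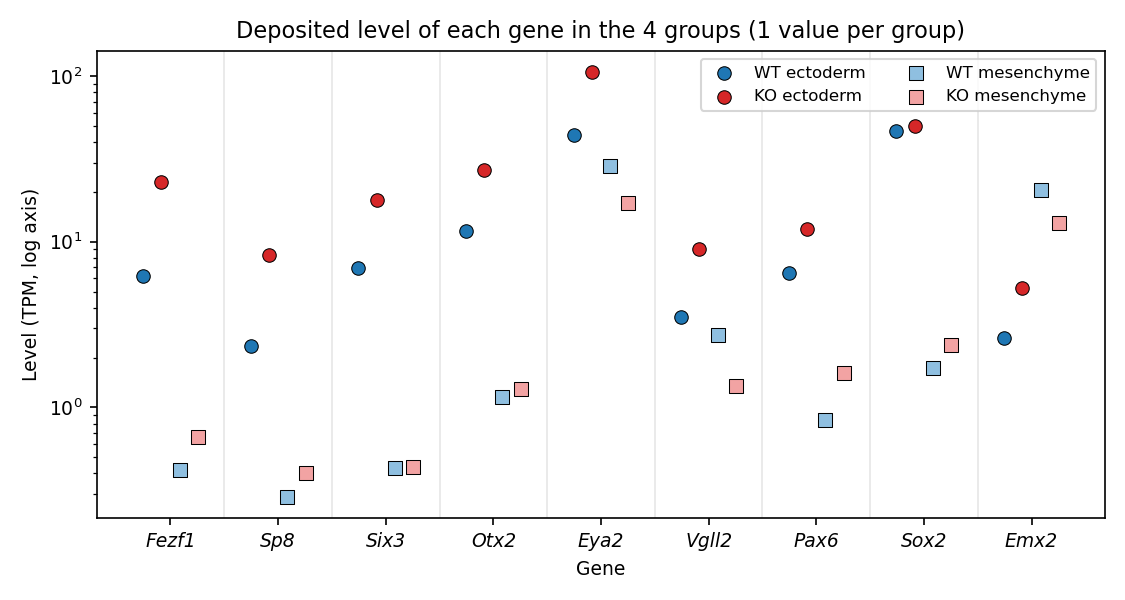
Deposited level of the 9 genes (x axis) in TPM on a log axis (y axis), 1 point per group and no error, circles for ectoderm and squares for mesenchyme. The KO ectoderm point lies above the WT ectoderm point for every gene, by 1.08-fold for Sox2 and by 1.84-fold to 3.69-fold for the others, and Emx2 alone has its highest points in mesenchyme.

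The zinc finger factors had the largest ratios. Fezf1, a repressor needed for olfactory sensory neurons to keep their identity and reach the olfactory bulb, had 6.23 TPM in WT and 23.0 TPM in KO ectoderm, and 0.42 and 0.66 TPM in WT and KO mesenchyme. Its 3.69-fold ratio in ectoderm (log2 ratio 1.73) held rank 23 of 13935 genes. The gene lies on chromosome 6 (23245044 to 23248362, minus strand, GRCm38). Sp8, a factor of outgrowing facial and limb buds, had 2.36 TPM in WT and 8.34 TPM in KO ectoderm, and 0.29 and 0.40 TPM in WT and KO mesenchyme, a ratio of 3.53-fold in ectoderm (log2 ratio 1.47, rank 60). Sp8 lies on chromosome 12 (118846329 to 118852576, plus strand), and its first promoter window ends directly ahead of that position. Both genes stayed below 1 TPM in both mesenchyme groups, so their KO to WT ratio in mesenchyme was not counted.

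The homeodomain factors differed in size and in layer. Six3, which patterns the anterior head and the eye, had 6.90 TPM in WT and 17.9 TPM in KO ectoderm, and 0.43 and 0.44 TPM in WT and KO mesenchyme (2.60-fold in ectoderm, log2 ratio 1.26). Otx2, required for the anterior head, was at 11.6, 26.95, 1.15 and 1.29 TPM in the same order (2.33-fold, log2 ratio 1.15). Both were high in ectoderm alone. In mesenchyme the KO level of Otx2 stood within 1.5-fold of WT, and Six3 was below the filter. Six3 spans 85613608 to 85629302 on chromosome 17 (plus strand) and Otx2 48657677 to 48673819 on chromosome 14 (minus strand).

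Pax6 holds a paired domain and a homeodomain, and nose and eyes do not form without it. It had 6.5 TPM in WT and 11.98 TPM in KO ectoderm, and 0.84 and 1.62 TPM in WT and KO mesenchyme. Its ratios were 1.84-fold in ectoderm (log2 ratio 0.79) and 1.93-fold in mesenchyme, where the log2 ratio of TPM + 1 was 0.51 and stayed within 1.5-fold because the levels are low. Pax6 lies at 105668900 to 105697364 on chromosome 2 (plus strand). Among the 9 genes it had the largest KO to WT ratio in mesenchyme.

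Emx2, a homeodomain factor of the dorsal forebrain and urogenital system, had the reverse layer pattern. It had 2.62 TPM in WT and 5.29 TPM in KO ectoderm, and 20.5 and 12.9 TPM in WT and KO mesenchyme. In ectoderm KO was 2.02-fold over WT (log2 ratio 0.80), and in mesenchyme KO was 63.0% of WT (log2 ratio -0.63). Its WT ectoderm level was 12.8% of the WT mesenchyme level, so it does not meet the low mesenchyme values that the choice names. Neither does Eya2, which had more RNA than Emx2 in both mesenchyme groups (28.7 and 17.1 TPM in WT and KO). Emx2 lies at 59458372 to 59465357 on chromosome 19 (plus strand).

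Sox2, a factor of progenitor cells in neural, sensory and oral epithelia, was nearly level between genotypes. It had 46.3 TPM in WT and 50.0 TPM in KO ectoderm, and 1.72 and 2.38 TPM in WT and KO mesenchyme, a ratio of 1.08-fold in ectoderm (log2 ratio 0.11, rank 4983 of 13935). It was the highest of the 9 genes in WT ectoderm and is the 1 of the 9 that was not counted as higher in KO ectoderm. Sox2 is at 34650405 to 34652461 on chromosome 3 (plus strand), inside the longer non-coding gene Sox2ot on the same strand.

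The cofactors bind DNA through partners. Eya2, a phosphatase and transcriptional coactivator, had 43.97 TPM in WT and 106 TPM in KO ectoderm, and 28.7 and 17.1 TPM in WT and KO mesenchyme (2.40-fold in ectoderm, log2 ratio 1.25). Vgll2, a partner of Tead factors, was at 3.51, 9.0, 2.73 and 1.35 TPM in the same order (2.56-fold in ectoderm, log2 ratio 1.15). In WT embryos these genes were close between layers, at 1.53-fold and 1.29-fold, and in KO embryos ectoderm was 6.19-fold and 6.67-fold over mesenchyme. Eya2 spans 165595032 to 165771727 on chromosome 2 (plus strand) and Vgll2 52022502 to 52028471 on chromosome 10 (plus strand).

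The order of levels was Sox2, Eya2, Otx2, Six3, Pax6, Fezf1, Vgll2, Emx2 and Sp8 in WT ectoderm. In KO ectoderm Eya2 came first, Fezf1 moved past Six3 and Pax6, and Sp8 past Emx2. Sox2 and Eya2 made up 35.6% and 33.8% of the WT ectoderm sum, and 19.4% and 40.9% of the KO ectoderm sum, in that order. Which neighbours in this order differ cannot be said, since there is no spread. In GENCODE M21 genes on the opposite strand overlap Six3, Otx2, Eya2, Pax6 and Emx2. Whether the libraries keep strand is not given in the sources used here, so reads of those partners may be part of the values.

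Between layers, 6 of the 9 genes were at least 2-fold higher in WT ectoderm than in WT mesenchyme (6.88% of 14242 genes tested), and Emx2 was lower (12.1%). Sox2 had the largest ratio at 26.9-fold, followed by Six3 (16.0-fold), Fezf1 (14.8-fold), Otx2 (10.1-fold), Sp8 (8.14-fold) and Pax6 (7.74-fold). In KO embryos 8 of the 9 were higher in ectoderm (9.06% of 14411 genes), led by Six3 at 40.8-fold and Fezf1 at 34.8-fold, and Emx2 was lower (6.88%). Low mesenchyme values were part of the choice, so the layer counts are descriptions too.

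In mesenchyme 6 of the 9 genes passed the filter, and 3 were at least 1.5-fold lower in KO and none higher. Of all 14233 genes tested there, 13.4% were lower and 2.33% higher. Eya2 (59.4% of WT, log2 ratio -0.72), Vgll2 (49.5%, -0.67) and Emx2 (63.0%, -0.63) were the 3 lower genes. The median log2 ratio of all genes in mesenchyme was -0.12. After a correction for transcript GC content none of the 3 reached 1.5-fold, with log2 ratios of -0.30, -0.08 and -0.32 in that order, and quantile normalization left Vgll2 alone.

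Eya2, Vgll2 and Emx2 were higher in KO ectoderm and lower in KO mesenchyme, each by 1.5-fold or more, as were 168 of 13283 genes tested in both layers (1.26%). Of the 168 genes, 130 had a WT mesenchyme level of 5-fold or more over WT ectoderm. Only Eya2, Vgll2 and Etv5, named after their values were seen, had more TPM in WT ectoderm than in WT mesenchyme. The KO effect in ectoderm minus that in mesenchyme was at least 2-fold for 7 of the 9 genes (7.34% of 14328), from 1.06 (Otx2) to 1.96 (Eya2) on the log2 scale. It was 0.28 for Pax6 and -0.20 for Sox2. The difference between the layers was not tested.

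**Figure D2:**
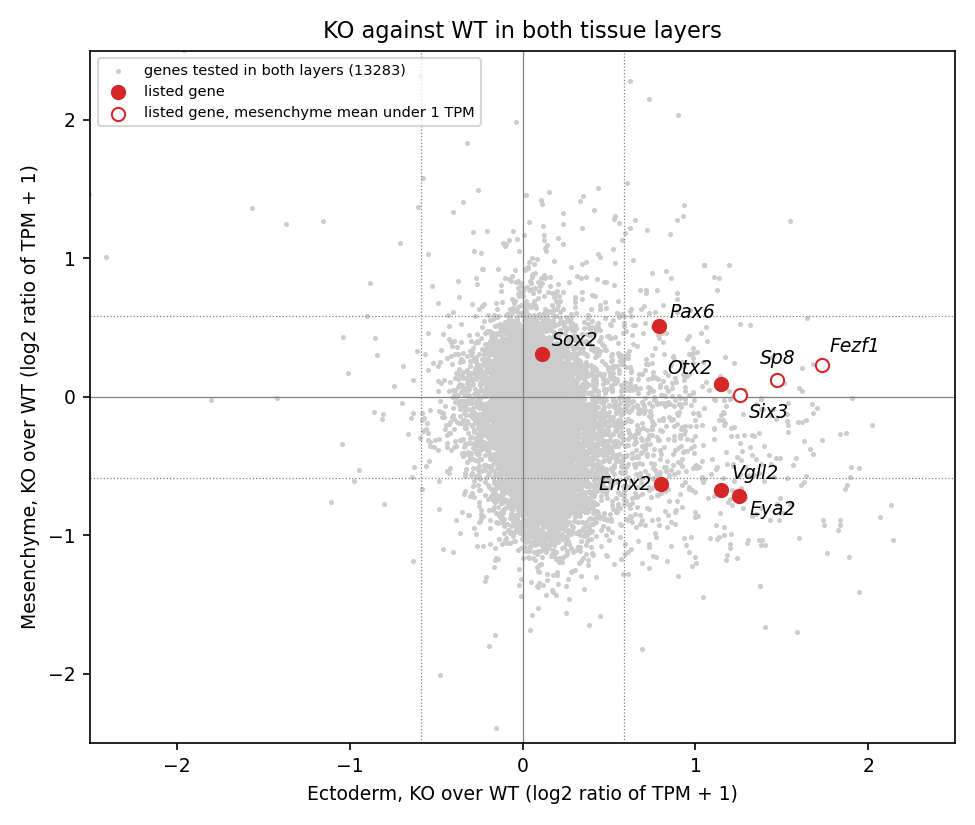
Log2 ratio of TPM + 1, KO over WT, in ectoderm (x axis) and mesenchyme (y axis). Grey points are 13283 genes tested in both layers (a few lie outside the axes), red points the 9 genes, open where the mesenchyme mean was below 1 TPM, and dotted lines mark 1.5-fold. Eya2, Vgll2 and Emx2 lie at the lower right, and Sox2 near the centre.

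Genes typical of mesenchyme were measured beside the 9 genes in ectoderm. The mesenchyme core list had 22 of 29 genes past 1.5-fold upward, 0 downward, and a median log2 ratio of 1.43. The gain of 24 of these genes, those that WT mesenchyme holds at 5-fold or more over WT ectoderm, was at the median 10.9% of the WT mesenchyme excess (quartiles 9.73 and 13.2). With 10.9% of WT mesenchyme subtracted, 6 of the 29 were still higher and 6 were lower. The share was set from 24 of these same genes, so their median comes near 0 by construction, and nothing is read from this split. Admixed mesenchyme and expression by the ectoderm's own cells cannot be told apart here, and their part in the ratios of the 9 genes was not tested. The share, the subtraction and the mixture below all use WT mesenchyme. The core list summed to 5117 TPM in WT and 3657 TPM in KO mesenchyme, and a share of KO mesenchyme was not computed. A computed mixture of WT ectoderm with 10.9% WT mesenchyme would hold 5.59 TPM of Fezf1, where 23.0 was measured. It would hold 42.3 TPM of Eya2 (106 measured), 10.45 of Otx2 (26.95 measured) and 3.42 of Vgll2 (9.0 measured).

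For 8 of the 9 genes the mixture lies below WT ectoderm, because mesenchyme has less of them. Measured KO ectoderm was 2.04-fold (Pax6) to 4.11-fold (Fezf1) over the mixture for the 7 counted genes other than Emx2, and 1.21-fold for Sox2. Emx2 came to 4.58 TPM in the mixture and 5.29 measured, 1.16-fold. With that share subtracted, 7 of the 9 genes were at least 1.5-fold higher in KO ectoderm, against 2.6% of 13826 genes tested. The 9 were chosen on this same contrast, so nothing is read from the count. The log2 ratio of Emx2 was then 0.29, within 1.5-fold. That of Fezf1 was 1.89 and that of Sp8 1.62.

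**Figure D3:**
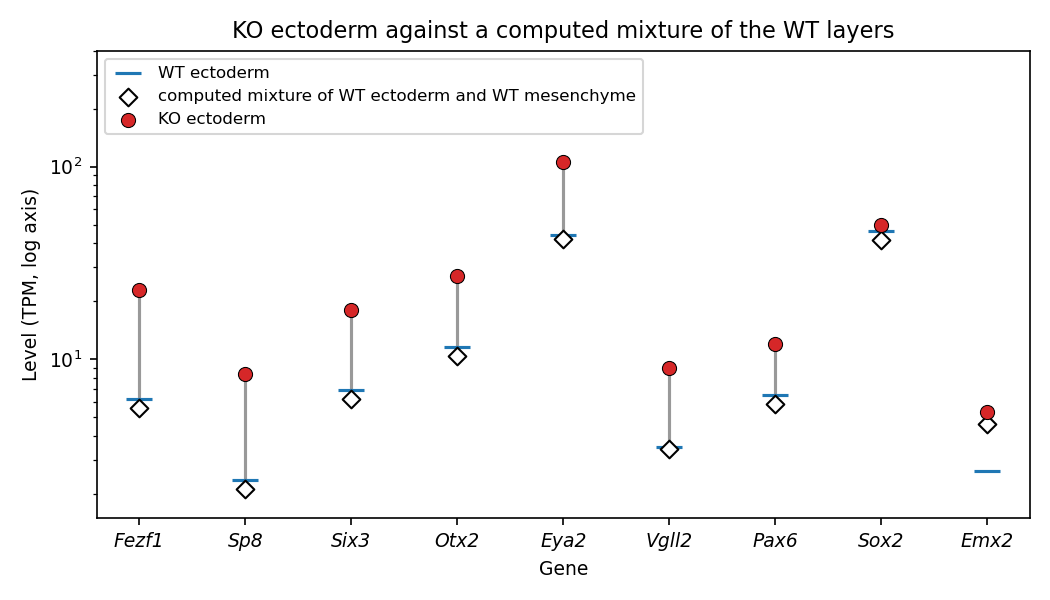
Level in TPM on a log axis (y axis) of each gene (x axis) in WT ectoderm (blue bar), in a computed mixture of WT ectoderm with 10.9% WT mesenchyme (open diamond) and in KO ectoderm (red point), with no error. The red point lies well above the diamond for 7 genes, and close to it for Sox2 and Emx2.

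Paralogs of the 9 genes were not among the genes chosen, but their list was drawn up with earlier results of these data known. Of 33 paralogs 23 passed the filter in ectoderm, 8 were at least 1.5-fold higher in KO and none lower, with a median log2 ratio of 0.31. Over all genes tested in ectoderm 4.92% were higher and 0.452% lower, and 2.6% were higher after the subtraction. These shares belong beside each ectoderm list count that follows. Lists rich in mesenchyme RNA had high counts too, such as 22 of 29 for the mesenchyme core. Emx1, the sister gene of Emx2 in the dorsal forebrain, had 1.05 TPM in WT and 3.96 TPM in KO ectoderm (0.16 and 0.07 in WT and KO mesenchyme). Six6, the close relative of Six3, was at 0.52 and 1.62 TPM (0.37 and 0.56). Among the 8, Emx1 and Six6 were the ones with less RNA in WT mesenchyme than in WT ectoderm.

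Six2 (17.6 to 42.3 TPM in ectoderm), Pax7 (2.95 to 9.08), Pax3 (5.73 to 11.85), Eya1 (15.1 to 28.9) and Eya4 (8.78 to 14.5) were among the higher paralogs, each with its highest level in WT mesenchyme. After subtraction of the mesenchyme share Emx1 (log2 ratio 1.40), Pax7 (1.26), Six2 (1.07), Six6 (0.87) and Eya1 (0.79) were still past 1.5-fold, and Pax3 (0.47) and Eya4 (0.37) were not.

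Other paralogs were close between WT and KO ectoderm. Otx1 was at 29.2 and 29.96 TPM, whereas Otx2 differed 2.33-fold, and it too was low in mesenchyme (0.38 and 0.44 TPM). Six4 (10.95 and 12.75 TPM), Six5 (21.7 and 26.8), Eya3 (45.1 and 42.5), Vgll4 (92.4 and 94.7), Vgll3 (15.8 and 17.04), Vgll1 (1.95 and 1.92) and Pax9 (11.5 and 14.5) lay within 1.5-fold. So did Sp1 (42.4 and 39.7), Sp2 (3.74 and 5.74, log2 ratio 0.51), Sp3 (77.8 and 80.85), Sp4 (8.11 and 9.16), Sp5 (1.90 and 2.65), Sp6 (14.4 and 13.3) and Pax1 (6.79 and 9.94). The other 10 paralogs were below the filter. Among them Sox3 was at 0.17 and 0.28 TPM, Sox1 at 0.08 and 0.05, Sp9 at 0.16 and 0.25 and Fezf2 at 0.08 and 0.34. The nearest relatives of Sox2, Sp8 and Fezf1 were thus hardly present in either ectoderm group.

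Among 32 other regulators of cranial and olfactory placodes, 27 were tested in ectoderm and 10 were higher in KO, none lower, with a median log2 ratio of 0.17. Dlx5 (6.23 to 20.9 TPM) and Dlx6 (5.70 to 18.4 TPM), neighbouring homeodomain genes of the placode and the lower jaw, and Nr2f1 (3.77 to 13.5 TPM), a nuclear receptor, were among those with the largest ratios. WT mesenchyme held more of each, at 45.8, 47.3 and 80.5 TPM. Of the 10 higher genes, 3, Lhx2 and Dmrta1 among them, had less RNA in WT mesenchyme than in WT ectoderm. After the mesenchyme share was subtracted 8 of the 10 stayed past 1.5-fold, Dlx5 and Dlx6 among them, and Nr2f1 did not (log2 ratio 0.38).

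Signals of the nasal pit were higher in KO ectoderm in part. Aldh1a3, which makes retinoic acid in the nasal and eye epithelium, had 17.1 TPM in WT and 54.5 TPM in KO ectoderm, and 8.14 and 7.07 TPM in WT and KO mesenchyme (log2 ratio 1.62 in ectoderm). Fgf17, an Fgf ligand, was at 3.54, 8.05, 0.83 and 0.68 TPM. Etv4, induced by Fgf signals, was at 27.2 and 54.9 TPM in ectoderm with 40.05 TPM in WT mesenchyme. Dlk1, a Notch-related surface protein, was at 29.5 and 77.9 with 264 TPM in WT mesenchyme. Of 21 tested, 13 were higher and 1 lower (Shh), with a median of 0.65, and 8 of the 13 were past 1.5-fold after the subtraction. Of the 13, only 3 (Fgf17, Aldh1a3 and Etv5) had less RNA in WT mesenchyme than in WT ectoderm.

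Genes of olfactory neurogenesis were higher in both KO layers in part, and so were general neuron genes. In ectoderm 14 of 23 olfactory genes were higher (9 to 14 over the other scalings and GC correction) with 0 lower and a median of 0.64. In mesenchyme 7 were higher and 1 lower of 23, with a median of 0.29, where 2.33% of all genes were higher. The neuron list, which shares Tubb3, Elavl3, Elavl4 and Stmn2 with the olfactory list, had 7 of 16 higher and 0 lower in mesenchyme, with a median of 0.52. The rise in both layers is thus not particular to the olfactory list. Lhx2, a homeodomain factor of olfactory neurons and forebrain, had 4.61 TPM in WT and 11.4 TPM in KO ectoderm and 2.24 and 2.60 in mesenchyme. Ebf3 (4.16 to 12.6 TPM in ectoderm), Ebf2 (2.16 to 5.80) and Gng8 (1.69 to 5.06), a G protein subunit of sensory neurons, had more RNA in WT mesenchyme, at 73.25, 17.65 and 19.0 TPM. Lhx2 was the 1 higher gene of this list with less RNA in WT mesenchyme than in WT ectoderm.

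Markers of neighbouring tissues that share these factors were measured beside them. Of 30 forebrain and eye genes 13 were tested and 8 were higher in KO ectoderm (5 to 8 over the other scalings and GC correction), none lower, with a median of 0.60. Pou3f3, a POU factor of neural cells, was at 1.01 and 2.91 TPM in WT and KO ectoderm (18.6 TPM in WT mesenchyme). The list summed to 197 TPM in WT and 195 in KO ectoderm, while its median level was 0.45 and 0.945 TPM. Wnt7b had the lowest log2 ratio of the list (-0.53), and it was far higher in WT ectoderm than in WT mesenchyme (log2 ratio 6.42). A level sum therefore does not mean that the genes of the list were level. Gsx2 was at 0 in both ectoderm groups, Gsx1 at 0 in KO ectoderm, and the neural factor Sox1 at 0.08 and 0.05 TPM. The part of forebrain tissue in the ratios was not tested.

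None of 7 tested lens genes was 1.5-fold apart (median 0.18), Crygd was at 0 in both ectoderm groups, Foxe3 and Crygc were at 0 in WT ectoderm but not in KO ectoderm, and the largest ratio was in Cryab (10.1 and 13.6 TPM). Of 7 pituitary genes Six6 and Gata2 (2.81 to 4.99 TPM) were higher, with a median of 0.02, and of 3 otic genes Sox10 (1.78 to 3.25 TPM), with a median of -0.01. Of 12 neuron genes 6 were higher (median 0.56), a count that ran from 1 to 6 over the other scalings and GC correction, led by Tubb3 (16.8 to 33.6 TPM), and the list summed to 126 TPM in WT and 169 in KO ectoderm. Muscle genes (12 of 15 higher, median 1.04) summed to 209, 282, 586 and 438 TPM in WT ectoderm, KO ectoderm, WT mesenchyme and KO mesenchyme, and endothelial genes (12 of 13, median 1.11) to 25.1, 65.5, 409 and 297 TPM, with examples in Tnnt1 (85.6 TPM in WT mesenchyme) and Cdh5 (55.6). Their part in the ratios of the 9 genes was not tested.

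Factors of the surface and oral ectoderm at large were close between genotypes. None of 26 was 1.5-fold apart in ectoderm on the TPM + 1 scale and the median log2 ratio was -0.08. Msx1, a homeodomain factor of facial buds, was at 74.5 and 106 TPM in WT and KO, Elf3 at 11.9 and 15.7 and Ehf at 2.85 and 4.51. Ehf was 1.58-fold apart by TPM (log2 ratio of TPM + 1 0.52). With the mesenchyme share subtracted 1 of 26 was higher, Ehf at 0.65, and 0 lower. Among 974 other genes at least 2-fold higher in WT ectoderm than in WT mesenchyme, 22 (2.26%) were higher and 40 (4.11%) lower in KO ectoderm, with a median of -0.08.

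**Figure D4:**
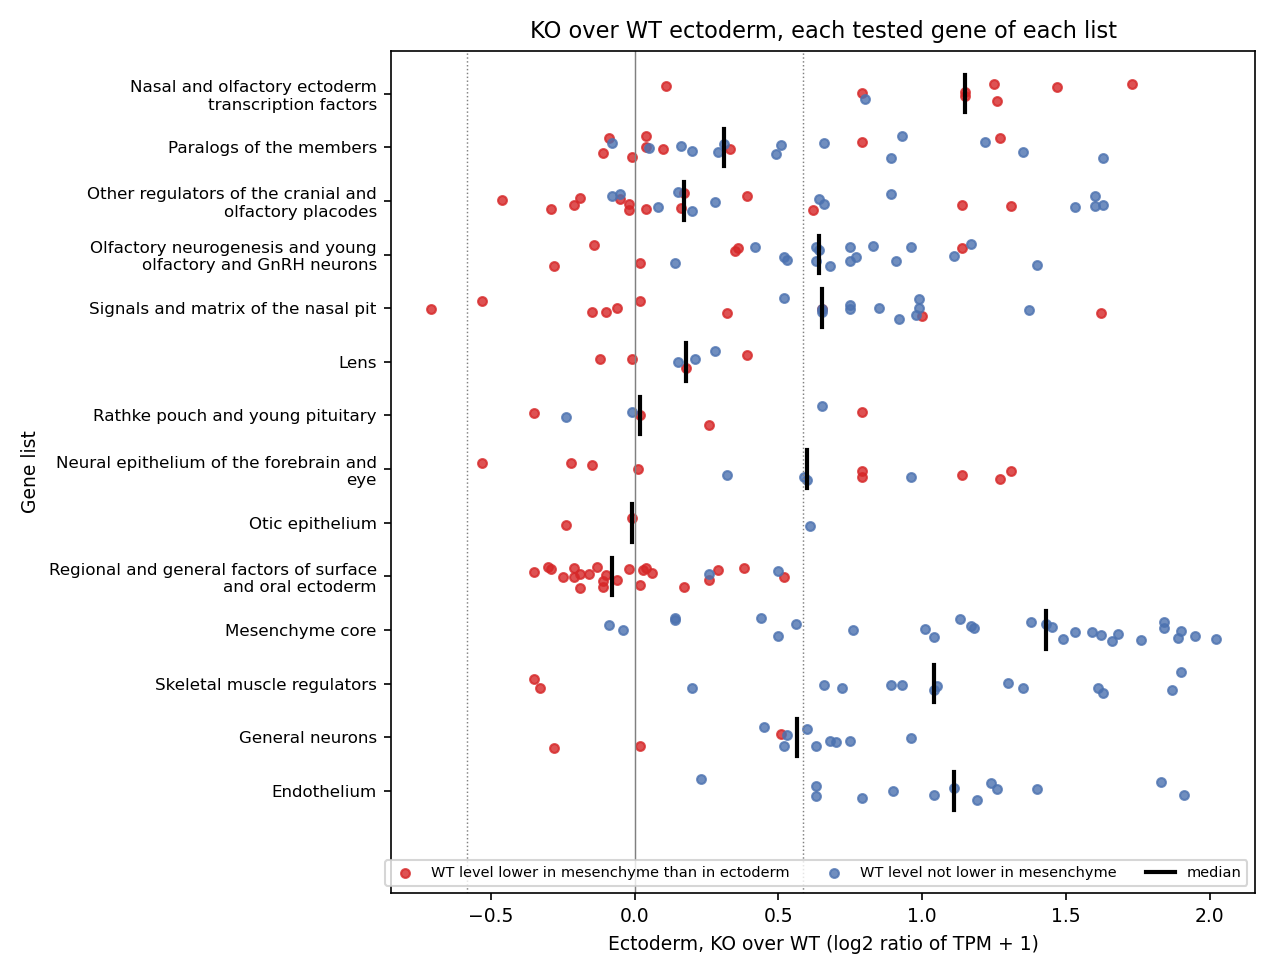
Log2 ratio of TPM + 1, KO over WT ectoderm (x axis), for each tested gene of each list (y axis), with the list median as a black bar and 1.5-fold as dotted lines. Red genes have less RNA in WT mesenchyme than in WT ectoderm and blue genes do not. The surface ectoderm list lies around 0, and most blue genes lie above 0.

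The genes closest to the median pattern of the 9 were sought by the Euclidean distance over 3 log2 ratios of TPM + 1 (KO over WT in ectoderm, KO over WT in mesenchyme, WT ectoderm over WT mesenchyme) among 11300 genes with at least 5 TPM in 1 or more groups, predicted gene models left out. The median pattern was 1.15, 0.09 and 2.03 in that order. Krtdap, an epidermal differentiation gene, was nearest (distance 0.23, 3.83 TPM in WT and 9.03 in KO ectoderm). Tnfrsf12a (0.64), Ndufa4l2 (0.66), Aqp3 (0.67), Ano1 (0.67), Espn (0.68), Col4a6 (0.73), Sema3e (0.75), Fgf17 (0.76) and Dmrt3 (0.78) followed. Of the 9 genes themselves, Six3 (0.46) and Otx2 (0.52) were nearest to the median pattern and Emx2 (4.67) and Sox2 (2.35) farthest. The gene nearest to Sox2 was Cdcp1 (0.27), and that nearest to Emx2 was Mmp2 (0.07), a matrix protease gene with 181 TPM in WT mesenchyme. These distances rest on 4 values per gene.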

How the data were processed

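RNA-seq of 16 libraries in 4 groups was summarised by the authors as TPM, in 1 deposited table with a single value for each gene and group. The submitters' processing notes name kallisto 0.43.0, STAR 2.5.2a and mm10. Which tool made the TPM, with which annotation and how libraries were joined, is not given in the sources used here. Columns summed to 917993 TPM (WT ectoderm), 955495 (KO ectoderm), 969156 (WT mesenchyme) and 977371 (KO mesenchyme). Of 30391 rows, 1 per symbol was kept (the highest sum).

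Ratios were computed in Python 3.11.15 with pandas 2.3.3 as log2 of TPM + 1, and the scripts were tested on simulated data. Positions, transcript GC content (lowess, fraction 0.3, statsmodels 0.14.6) and overlaps came from GENCODE M21 (GRCm38, the assembly also called mm10), which matched 99.0% of symbols. Promoters came from RefSeq on GRCm38.p6. The genes and lists were chosen with earlier results of these data known. All 9 genes, the tested paralogs, the 4 largest ectoderm ratios of each other list and the 10 nearest patterns were named by rule, and other genes after their values were seen. Some genes that this rule names are not reported here. Of 8 listed antisense or overlapping transcripts, 0 had a row in the table as used here. The alternatives were another pseudocount (0.5 or 5 TPM), filter (none or 5 TPM), scaling, treatment of repeated symbols and size, subtraction of a mesenchyme share and, added after seeing the data, GC correction.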

Additional observations from a re-analysis of the deposited data

Results flagged for a closer look

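Eya2, Vgll2 and Emx2 stood out because their KO to WT difference ran in opposite directions in the layers, higher in ectoderm and lower in mesenchyme. The ectoderm effect minus the mesenchyme effect was 1.96 for Eya2, 1.82 for Vgll2 and 1.42 for Emx2 on the log2 scale. As many as 168 of 13283 genes (1.26%) had the same pattern. After GC correction none of the 3 was 1.5-fold lower in mesenchyme, with log2 ratios of -0.30, -0.08 and -0.32, and with the mesenchyme share subtracted Emx2 was within 1.5-fold in ectoderm (0.29). With 1 value per group and layer the difference was not tested. Spread between the 4 libraries of a group could not be examined.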

How the results depend on the processing

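No direction of any of the 9 genes was reversed under the 11 alternatives. The count of genes higher in KO ectoderm was 8 and ranged from 6 (pseudocount 5, and size of 2-fold) to 8, and the count higher in KO than WT mesenchyme was 0, but 1 (Pax6) with a pseudocount of 0.5, after centring on the median of all genes, and after GC correction. The count lower in KO mesenchyme was 3, and 1 with a pseudocount of 5, with quantile normalization and after centring, and 0 at a size of 2-fold and after GC correction. Quantile normalization moved the median log2 ratio of all genes in mesenchyme from -0.12 to 0.02. Genes higher in WT ectoderm than WT mesenchyme numbered 6, and 2 at a filter of 5 TPM, where 4 were tested. Genes with a larger KO effect in ectoderm numbered 7, and 3 with a pseudocount of 5 and 2 at a size of 3-fold. The pseudocount, filter and size act by their own construction, and for centring, quantile normalization and GC correction the cause was not tested. Over all genes, 686 were higher and 63 lower in KO ectoderm, 467 and 131 after quantile normalization, 239 and 29 with a pseudocount of 5, 359 and 99 after the subtraction, 317 and 40 at a filter of 5 TPM and 224 and 21 at 2-fold. In mesenchyme 332 were higher and 1902 lower, 674 and 312 after GC correction, 639 and 968 after quantile normalization and 590 and 1164 after centring. Over other scalings and GC correction, the counts higher in KO ectoderm ran from 7 to 8 for paralogs, 7 to 10 for placode, 9 to 14 for olfactory neurogenesis, 10 to 13 for nasal signal, 5 to 8 for forebrain and 1 to 6 for neuron genes. No paired analysis was possible because the table has 1 value per group and no value per library, and for the same reason no library could be left out.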

Other observations

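Among the 22 other genes enriched in WT ectoderm and higher in KO ectoderm, several belong to groups not described above. The genes given here were picked after their values were seen. Dmrta2 is also on the forebrain and eye list, and Sema3e and Ndufa4l2 are also among the nearest patterns above. Cyp26c1, which breaks down retinoic acid, had 15.3 TPM in WT and 29.2 TPM in KO ectoderm, and 0.45 and 0.85 TPM in mesenchyme. Keratins of stressed or periderm-like epithelium were Krt6a (14.8 and 27.8 TPM) and Krt17 (27.97 and 45.9 TPM). The guidance ligand Sema3e was at 4.41 and 7.98 TPM, Dmrta2, a factor of the medial forebrain, at 1.97 and 4.12, and Ndufa4l2 at 3.10 and 10.1. The heat shock gene Hspa1a was at 6.80 and 20.9 TPM in ectoderm and at 0.60 and 18.4 in mesenchyme, so it was higher in both KO layers. No test was possible for these values.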
